A study of Mus musculus with 45 samples.

Results

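Small nucleolar RNA (snoRNA) genes were compared by class in 45 mouse mammary tumours. Members were chosen by name and level: they were the genes whose probe set carried exactly 1 gene symbol and whose symbol began with Snord (box C/D class) or Snora (box H/ACA class). Of 56 such genes, 30 were box C/D and 26 were box H/ACA. A gene was kept where its probe set, the one with the highest mean where several existed, lay above the median of the whole table (5.67 on the log2 scale) in at least 8 of 45 tumours. This kept 50 genes, 26 box C/D and 24 box H/ACA, among 12123 kept of 18820 genes in all. They were thus selected on their log2 values over all tumours, without regard to the groups, and their levels are given as descriptions.

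The study asked how irradiation of the host affects tumours that arise from unirradiated tissue. Every tumour grew from Trp53-null mammary fragments of BALB/c donors grafted into inguinal mammary fat pads of wild-type females, 10 weeks old and also BALB/c. The hosts had lost their own mammary epithelium at 3 weeks of age, and were exposed to silicon (Si) ions or sham-treated 3 days before the transplant. They were followed for 600 days, and tumours were taken at 1 cm3. By the labels, 9 tumours came from hosts given 10 cGy Si, 10 from hosts given 30 cGy, 8 from hosts given 80 cGy and 18 from sham hosts. All 45 tumours therefore share the loss of Trp53, the strain and the host surgery, and 27 of them had an Si-irradiated host. Trp53 itself was not analysed here, since it had no probe set of its own. The labels do not say which tumours came from separate donors. In 8 cases, 2 tumours had description codes with the same stem once a final L or R was removed. The meaning of stem and letter is not given, so whether such tumours shared a host is not known. Deviations from the group means correlated in these 8 pairs at a median r of -0.01 (-0.11 to 0.69). The consensus correlation within stems that limma estimated over the kept genes was 0.24. The main tests treated all 45 tumours as independent. The p-values measure only the spread between these tumours.

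snoRNAs are short nuclear RNAs that guide chemical changes on ribosomal RNA. Box C/D snoRNAs pair with their targets and direct methylation of the ribose through fibrillarin, while box H/ACA snoRNAs direct the change of uridine to pseudouridine through dyskerin. Most mouse snoRNAs lie in introns of other genes, often genes for ribosomal proteins or long non-coding RNAs that serve as hosts, and are released when the host transcript is spliced and its introns are trimmed. A few, such as U3, U8 and the U17 family (Snora73a and Snora73b), act in cutting the ribosomal RNA precursor rather than in modifying it.

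Of the 50 kept snoRNA genes, 49 lay within the span of another gene in the RefSeq annotation (build GRCm38.p6). The exception was Snord118, which encodes U8. The table gave no strand for the snoRNA genes, so hosts were assigned by span alone. In 17 cases the host was a ribosomal protein gene (9 box C/D, 8 box H/ACA), and in 14 a long non-coding RNA gene (8 and 6). The members had 43 hosts between them, and 8 hosts held 2 or more kept members, 17 members in all. Gene length was 53 to 148 bases for box C/D (median 73.5) and 61 to 205 bases for box H/ACA (median 121).

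The start regions of these 8 hosts are printed because an intronic snoRNA is transcribed from its host's promoter. Each is a RefSeq sequence (GRCm38.p6) of 60 bases, with 40 bases before the annotated start and 20 from it on, given on the host's strand. Genes for ribosomal proteins and for many snoRNA hosts are known to start in a run of pyrimidines, so the letters CTTTC were searched on both strands from 10 bases before the start to 20 after it. The motif was chosen after the sequences had been seen, and capitals mark its matches. 2410006H16Rik (chr11:62602837-62602896, plus strand) holds Snord49a and Snord49b, and Kansl2 (chr15:98534250-98534309, minus strand) holds Snora2b and Snora34. Ncl (chr1:86359436-86359495, minus strand) holds Snord82 and Snora75, and Rack1 (chr11:48800320-48800379, plus strand) holds Snord95 and Snord96a. Rpl13a (chr7:45128726-45128785, minus strand) holds Snord33 and Snord35a, and Rps3 (chr7:99483690-99483749, minus strand) holds Snord15a and Snord15b. Snhg12 (chr4:132308638-132308697, plus strand) holds Snora16a, Snora44 and Snora61, and Snhg3 (chr4:132353667-132353726, minus strand) holds Snora73a and Snora73b.
2410006H16Rik: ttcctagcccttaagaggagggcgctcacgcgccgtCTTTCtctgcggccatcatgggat
Kansl2: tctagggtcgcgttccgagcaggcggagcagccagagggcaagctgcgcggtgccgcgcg
Ncl: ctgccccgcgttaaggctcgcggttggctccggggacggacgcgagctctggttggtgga
Rack1: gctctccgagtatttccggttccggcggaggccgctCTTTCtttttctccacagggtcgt
Rpl13a: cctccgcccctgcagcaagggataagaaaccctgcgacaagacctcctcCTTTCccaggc
Rps3: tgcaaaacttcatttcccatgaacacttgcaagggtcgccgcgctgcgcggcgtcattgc
Snhg12: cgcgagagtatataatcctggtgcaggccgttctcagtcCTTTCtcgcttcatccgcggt
Snhg3: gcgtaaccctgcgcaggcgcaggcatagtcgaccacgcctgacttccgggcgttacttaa

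Among the 43 hosts, 32 had an entry in the promoter table, and CTTTC lay in the window of 8 of them (25%), against 1197 of 27025 genes in the whole promoter table (4.43%). The 8 were 2410006H16Rik, Gas5, Ipo7, Rack1, Rpl13a, Rpl27a, Rplp2 and Snhg12. On the other strand the motif was in 1 of the 32 hosts (3.12%), against 4.31% of all genes. These matches describe letters in a short window and say nothing of which factor acts there. Hosts of snoRNAs with large and with small differences between the groups are both among the 8 (Snord49b in 2410006H16Rik, Snord95 in Rack1).

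Box C/D snoRNAs were mostly lower in tumours of Si-irradiated hosts than in those of sham hosts, and so were box H/ACA snoRNAs, with smaller differences at the median, but no snoRNA gene passed the test. The contrast set the unweighted mean of the 3 dose groups against sham, in a limma fit of the 4 group means with Benjamini-Hochberg adjustment over all 12123 genes at 0.05. It called 0 snoRNA genes and 0 genes overall (0% of genes tested), and the lowest adjusted p of a snoRNA was 0.589. Of the 26 box C/D genes, 25 had a lower mean in Si hosts, with a median difference of -0.25 on the log2 scale (range -0.63 to 0.08). Of the 24 box H/ACA genes, 22 had a lower mean, with a median of -0.15 (range -0.76 to 0.06). Over all genes the median was 0.01 and 46.8% were lower. At an unadjusted p under 0.05, 14 box C/D and 4 box H/ACA genes were lower and none was higher, beside 281 of all genes lower (2.32%). Over all genes the quartiles of the difference were -0.09 and 0.11, and 12 box C/D and 3 box H/ACA genes were below the 5th percentile of all genes (-0.26). The members were chosen with earlier results of these data known, and their counts are given as descriptions. Whether the classes differed in their response was not tested.

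**Figure D1:**
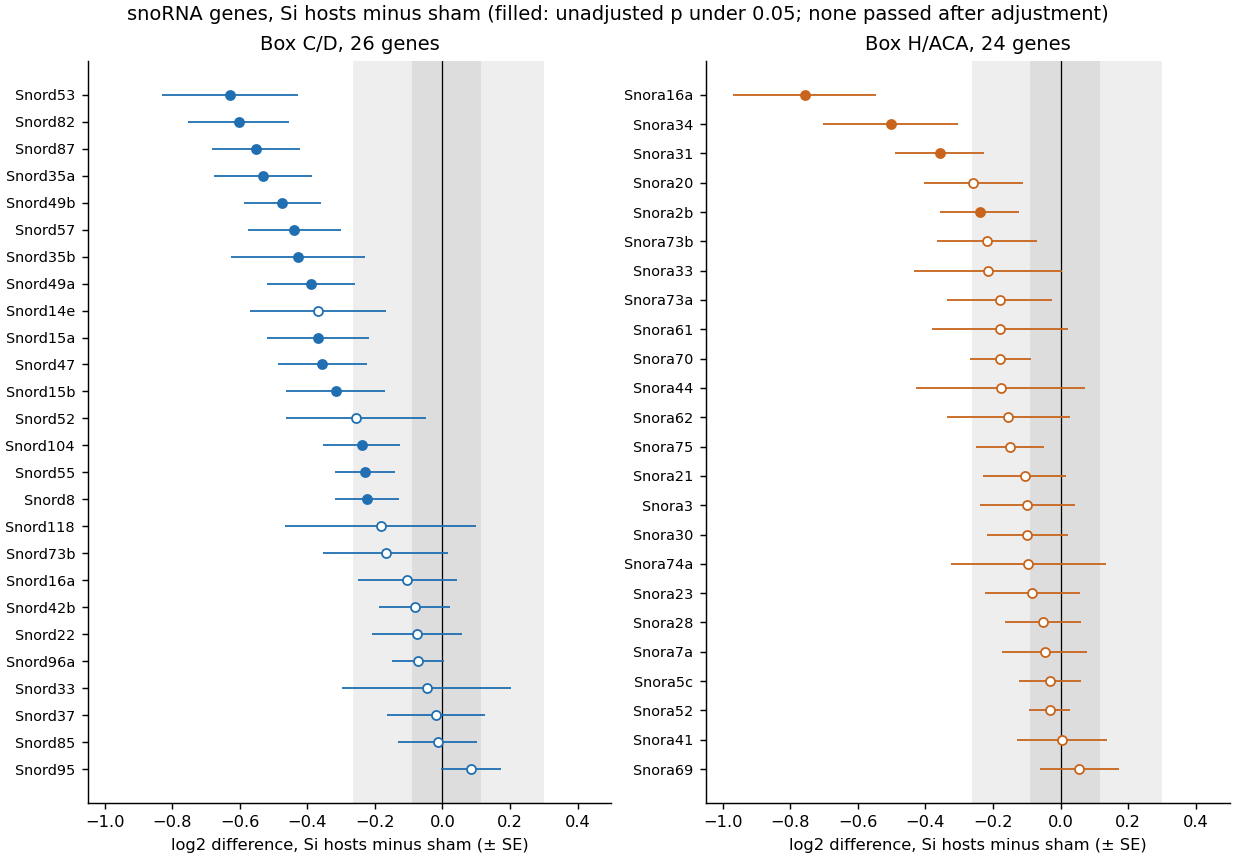
Log2 difference, Si hosts minus sham, for each of the 50 kept snoRNA genes, box C/D and box H/ACA apart, with bars of 1 standard error from limma. The values run from -0.63 to 0.08 for box C/D and from -0.76 to 0.06 for box H/ACA, and 25 of 26 and 22 of 24 lie below 0.

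Of the kept genes, 32 lay above the table median in all 45 tumours (19 box C/D, 13 box H/ACA), and 49 of 50 would have been kept on the 27 tumours of Si hosts alone. The exception was Snora41, the kept gene nearest the limit, which was above the median in 8 of 45 tumours and whose difference was 0.00 ± 0.13. Among the genes above the median in all 45 tumours, 12 of 19 box C/D and 1 of 13 box H/ACA genes were lower in Si hosts at an unadjusted p under 0.05, and the class medians were -0.32 and -0.11. Of all genes, 8598 passed this stricter filter, and the share of them lower at that p was not counted. Next inside came Snora20 (31 of 45) and, among box C/D, Snord37 and Snord85 (32 of 45 each). The 6 genes not kept were Snord38a, Snord58b, Snord61 and Snord73a of box C/D and Snora19 and Snora36b of box H/ACA. The nearest outside were Snord58b and Snord73a, above the median in 4 of 45 tumours each, and Snora19 and Snora36b, above it in 0.

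Among the box C/D genes, Snord87 (chr1:9942470-9942543, within Snhg6 and Mcmdc2) had the lowest p in the contrast of Si hosts with sham. Its log2 values, given as lowest, median and highest, were 5.66, 6.44 and 6.65 at 10 cGy, 4.93, 5.75 and 6.24 at 30 cGy, 4.96, 5.92 and 6.30 at 80 cGy, and 5.77, 6.48 and 7.51 in sham. In 24 of 27 Si tumours the value lay below the sham mean, and in 8 it lay below the lowest sham tumour, so the groups overlapped but the upper part of the sham range held no Si tumour. The difference for Si hosts was -0.55 ± 0.13 (SE, p = 0.000129, limma adjusted p = 0.589). By dose it was -0.20 ± 0.18 at 10 cGy, -0.77 ± 0.17 at 30 cGy (p = 4.42e-05, limma adjusted p = 0.536) and -0.68 ± 0.18 at 80 cGy (p = 0.00056, limma adjusted p = 0.477). At 30 cGy this was the lowest p of all 12123 genes.

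Snord82 (chr1:86356260-86356327) lies within Ncl, the gene of nucleolin, an abundant nucleolar protein that acts in ribosome assembly. Its log2 values (lowest, median, highest) were 9.01, 9.96 and 10.73 at 10 cGy, 8.23, 9.38 and 10.04 at 30 cGy, 8.81, 9.14 and 9.57 at 80 cGy, and 8.85, 10.15 and 10.68 in sham. All 8 tumours at 80 cGy lay below the sham mean, yet their range overlapped the sham range at its lower end. The difference for Si hosts was -0.60 ± 0.15 (p = 0.000213, limma adjusted p = 0.646). It was -0.16 ± 0.20 at 10 cGy, -0.73 ± 0.19 at 30 cGy and -0.92 ± 0.21 at 80 cGy (p = 6.04e-05, limma adjusted p = 0.344). Snord82 also had the smallest adjusted p of any snoRNA in the 7 tests, in the slope on dose, with -0.121 ± 0.026 log2 per 10 cGy (p = 2.59e-05, limma adjusted p = 0.157). With array weights in the limma fit, Snord82 was called at 80 cGy (-0.87, adjusted p = 0.0235) and in the slope (adjusted p = 0.0205).

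Snord49b (chr11:62603086-62603148) and Snord49a share the host 2410006H16Rik, a non-coding gene. Snord49b had log2 values (lowest, median, highest) of 10.55, 11.02 and 11.59 at 10 cGy, 10.21, 10.83 and 11.46 at 30 cGy, 10.52, 10.79 and 11.22 at 80 cGy, and 10.16, 11.44 and 11.92 in sham. The sham group held both the highest and the lowest tumour, and the Si values lay inside its range. Its difference was -0.47 ± 0.11 for Si hosts (p = 0.000146, limma adjusted p = 0.589), and -0.31 ± 0.15, -0.56 ± 0.15 and -0.55 ± 0.16 at 10, 30 and 80 cGy. Without sham replicate 12, the lowest tumour for this gene (10.16), Snord49b was called for Si hosts (-0.55, limma adjusted p = 0.0357). Leaving out any other single tumour called no snoRNA gene. Snord49a lay at 6.78, 7.51 and 8.36 in Si hosts and at 6.98, 8.05 and 8.69 in sham, with a difference of -0.39 ± 0.13 (p = 0.00466, limma adjusted p = 0.796). The values of both snoRNAs moved together across tumours (r = 0.612, n = 45).

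Snord35a (chr7:45126347-45126435) and Snord33 lie within Rpl13a, the gene of a large-subunit ribosomal protein. The snoRNAs of this gene are known from cultured rodent cells as mediators of lipid and oxidative stress. For Snord35a the lowest, median and highest log2 values were 8.98, 9.76 and 10.02 at 10 cGy, 8.25, 9.10 and 9.88 at 30 cGy, 8.22, 9.31 and 10.29 at 80 cGy, and 9.45, 9.73 and 10.69 in sham. Below the lowest sham tumour lay 13 of the 27 Si tumours and 7 of the 10 at 30 cGy, while the medians at 10 cGy and in sham nearly coincided. The difference for Si hosts was -0.53 ± 0.15 (p = 0.000663, limma adjusted p = 0.667), with -0.24 ± 0.19 at 10 cGy, -0.72 ± 0.19 at 30 cGy and -0.64 ± 0.20 at 80 cGy. Snord33, from the same host, gave -0.05 ± 0.25 for Si hosts, and the correlation of its values with those of Snord35a was 0.462.

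**Figure D2:**
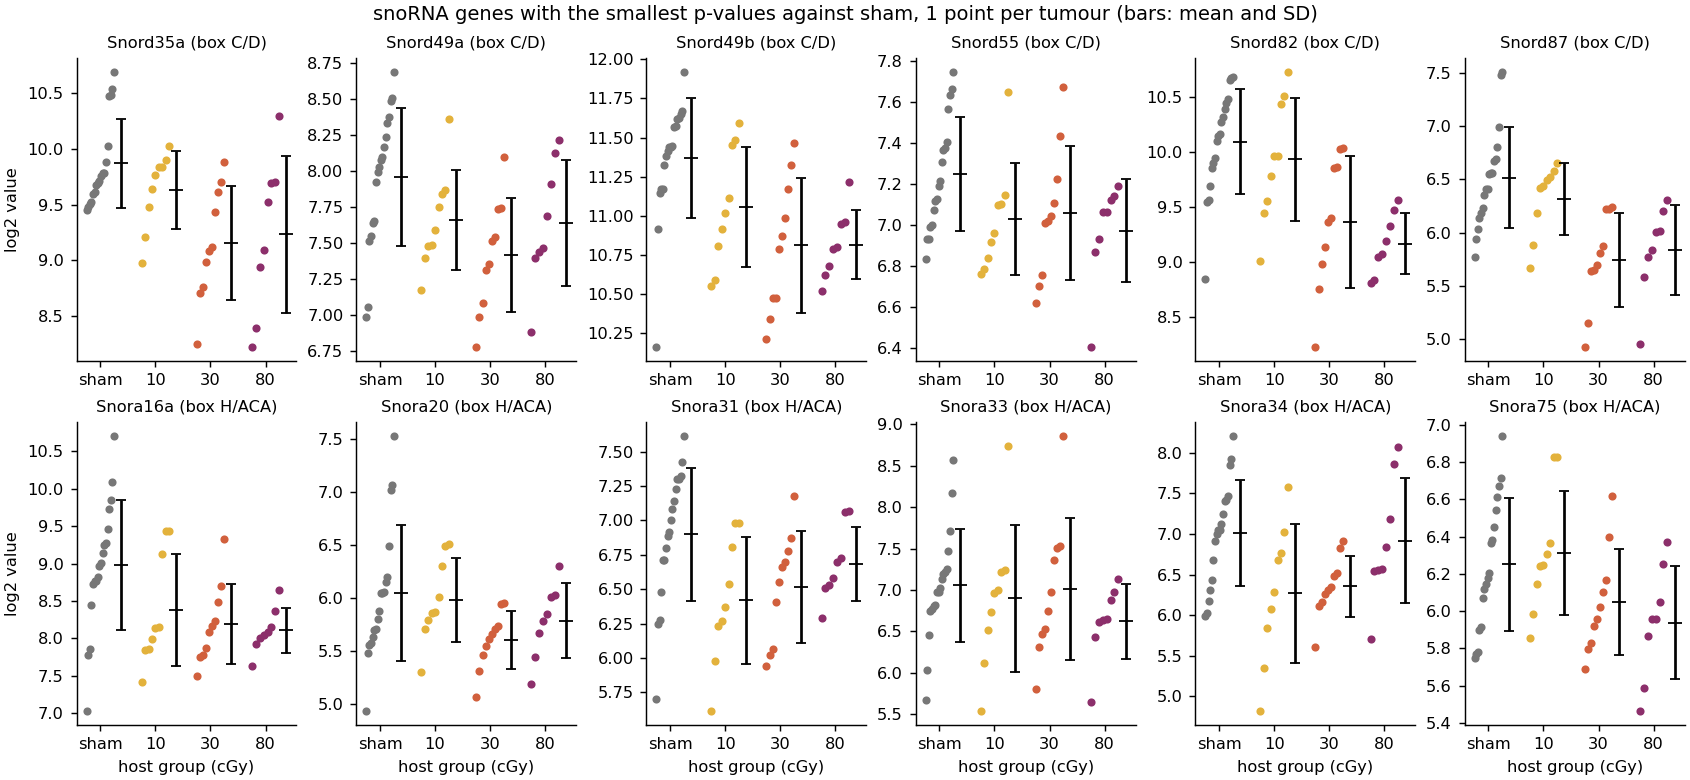
Log2 value of single snoRNA genes in every tumour, one point per tumour, by host group (sham, then 10, 30 and 80 cGy Si), with bars for each group's mean and SD. The groups overlap for each gene shown, and in Snord35a 7 of the 10 tumours at 30 cGy lie below the lowest sham tumour.

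Further box C/D genes with an unadjusted p under 0.05 for Si hosts were Snord57, Snord53, Snord47, Snord55, Snord15a, Snord8, Snord35b, Snord15b and Snord104. Snord57, within Nop56, the gene of a core protein of box C/D particles, lay at 9.53, 10.56 and 11.47 in Si hosts and at 10.10, 11.16 and 11.73 in sham, with a difference of -0.44 ± 0.14 (p = 0.00265). Snord53, within Wdr43, a gene of small-subunit assembly, lay at 7.72, 9.45 and 10.23 in Si hosts and at 8.54, 9.72 and 11.20 in sham. Its difference of -0.63 ± 0.20 (p = 0.00324) was the most negative of the class, with -0.89 ± 0.26 at 30 cGy. Both genes overlapped widely between the groups, and both had a limma adjusted p of 0.796. Snord15a and Snord15b share the host Rps3 and varied together (r = 0.893), with differences of -0.37 ± 0.15 and -0.32 ± 0.15. They are known as variants of one snoRNA, and whether their probe sets share signal was not tested. At the other end, Snord95 gave 0.08 ± 0.09 and Snord96a -0.07 ± 0.08, both within Rack1, the gene of a ribosomal scaffold protein. Snord118 (U8, needed in vertebrates for processing of the large-subunit ribosomal RNAs) gave -0.18 ± 0.28.

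Among the box H/ACA genes, Snora16a (chr4:132309465-132309600, within the non-coding gene Snhg12) had the most negative difference of all kept snoRNA genes. Its lowest, median and highest log2 values were 7.41, 8.14 and 9.44 at 10 cGy, 7.49, 8.13 and 9.33 at 30 cGy, 7.64, 8.07 and 8.65 at 80 cGy, and 7.03, 8.99 and 10.71 in sham. The SD was 0.75 at 10 cGy, 0.54 at 30 cGy, 0.30 at 80 cGy and 0.87 in sham, the largest group, and no Si tumour lay below the lowest sham tumour. The difference was -0.76 ± 0.21 for Si hosts (p = 0.000866, limma adjusted p = 0.667), and -0.60 ± 0.28, -0.79 ± 0.27 and -0.88 ± 0.30 at 10, 30 and 80 cGy. Snora44, from the same host, gave -0.18 ± 0.25, and the values of both were only weakly related (r = 0.186). Snora61, also within Snhg12, went with Snora44 (r = 0.651) and not with Snora16a (r = -0.059).

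Snora34 (chr15:98519717-98519834, within Kansl2, a gene of a histone acetylation complex) lay at 4.82, 6.28 and 7.58 at 10 cGy, 5.60, 6.33 and 6.91 at 30 cGy, 5.71, 6.70 and 8.07 at 80 cGy, and 5.99, 7.05 and 8.21 in sham. Its difference was -0.75 ± 0.27 at 10 cGy (p = 0.008, limma adjusted p = 0.991), -0.66 ± 0.26 at 30 cGy and -0.10 ± 0.28 at 80 cGy. The most negative differences were thus those of the lower doses, in contrast to Snord82, although no difference between doses was called for either gene. Snora31, within Tpt1, the gene of an abundant growth-linked protein, lay at 5.62, 6.37 and 6.98 at 10 cGy, 5.94, 6.61 and 7.18 at 30 cGy, 6.29, 6.64 and 7.07 at 80 cGy, and 5.70, 6.96 and 7.61 in sham. Its difference for Si hosts was -0.36 ± 0.13 (p = 0.00918, limma adjusted p = 0.796), and all groups overlapped. Snora2b, the fourth box H/ACA gene with an unadjusted p under 0.05, gave -0.24 ± 0.12. The gene with the smallest spread, Snora52 within the ribosomal protein gene Rplp2, gave -0.03 ± 0.06, and the highest difference of the class was 0.06, that of Snora69.

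The 3 doses were each set against the same 18 sham tumours, so the comparisons are not independent and their values are given side by side. At 10 cGy, 21 of 26 box C/D and 14 of 24 box H/ACA genes were lower than in sham, with medians of -0.17 and -0.04, and 1 and 3 of them had an unadjusted p under 0.05 (1.64% of all genes were lower at that level). At 30 cGy, 24 and 23 were lower, with medians of -0.41 and -0.24, and 13 and 5 had an unadjusted p under 0.05 (2.43% of all genes). At 80 cGy, 20 and 20 were lower, with medians of -0.27 and -0.16, and 9 and 2 had an unadjusted p under 0.05 (2.19% of all genes). The medians over all genes were 0.01, -0.00 and 0.03. At 30 cGy, 16 of the 26 box C/D genes were below the 5th percentile of all genes (-0.36), against 4 of the 24 box H/ACA genes. None was called by limma with Benjamini-Hochberg adjustment at any dose (0% of all genes), with lowest adjusted p-values among snoRNAs of 0.991, 0.536 and 0.344. Without sham replicate 14, the counts at an unadjusted p under 0.05 were 0 for box C/D at 10 cGy and 3 for box H/ACA at 30 cGy. Without 80 cGy replicate 1, the counts at 80 cGy were 7 for box C/D and 1 for box H/ACA.

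Both classes had their most negative median at 30 cGy, and neither had it at the highest dose. The slope on dose called 0 snoRNA genes and 0 genes overall (0%), and 7 box C/D and 2 box H/ACA genes had an unadjusted p under 0.05 (7.43% of all genes). In the limma F test over the 4 groups the counts were 0 called, with 9 and 3 at an unadjusted p under 0.05 (4.13% of all genes) and a lowest adjusted p of 0.533. In the F test among the 3 doses they were 0 called, with 4 and 1 at an unadjusted p under 0.05 (3.98% of all genes) and a lowest adjusted p of 0.999. Snord37 was among the 5, with -0.42 ± 0.19 at 30 cGy and 0.28 ± 0.20 at 80 cGy. No difference between doses was thus called for any snoRNA gene. At 10 cGy the count of box C/D genes at an unadjusted p under 0.05, 1 of 26, was near the share over all genes.

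**Figure D3:**
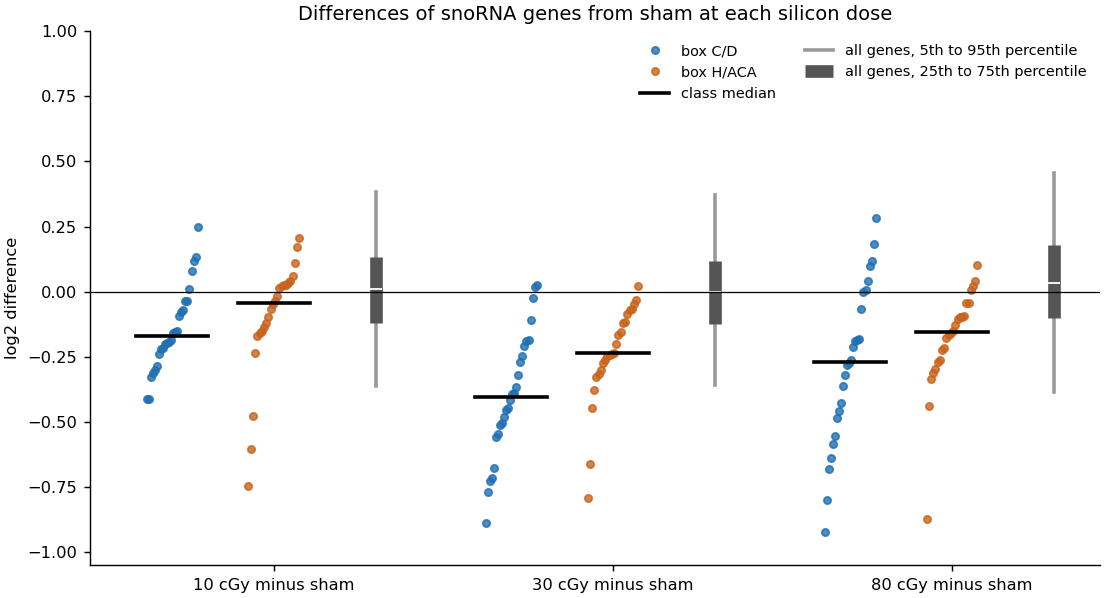
Log2 difference from sham of each kept snoRNA gene at 10, 30 and 80 cGy, box C/D and box H/ACA apart, with the class median marked and the spread over all genes beside it. The box C/D medians are -0.17, -0.41 and -0.27 and the box H/ACA medians -0.04, -0.24 and -0.16.

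To follow the classes tumour by tumour, each gene's log2 values were centred on their mean over the 45 tumours and averaged over the class. This class score is a description, and no p was computed for it. The box C/D score was 0.02 ± 0.16 at 10 cGy (SD, n = 9), -0.23 ± 0.27 at 30 cGy (n = 10), -0.11 ± 0.34 at 80 cGy (n = 8) and 0.17 ± 0.30 in sham (n = 18). The box H/ACA score was 0.01 ± 0.21, -0.14 ± 0.15 and -0.08 ± 0.25 at these doses and 0.11 ± 0.34 in sham. Of the 27 Si tumours, 23 lay below the sham mean in the box C/D score and 22 in the box H/ACA score, and the range of each dose group overlapped that of sham in both. All 10 tumours at 30 cGy were below the sham mean in box C/D, against 5 of 8 at 80 cGy. The box C/D minus box H/ACA score was -0.04 ± 0.17 in Si hosts and 0.06 ± 0.15 in sham (SD).

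**Figure D4:**
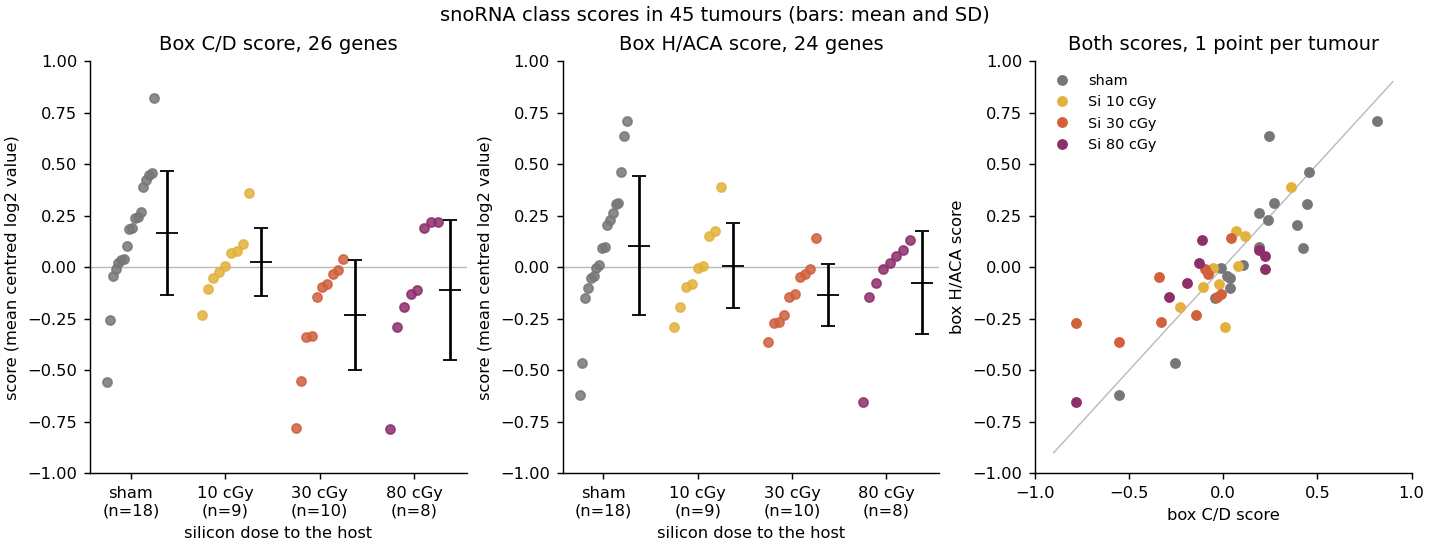
Class score (mean of gene-centred log2 values) of box C/D and box H/ACA snoRNAs in every tumour by host group (sham, then 10, 30 and 80 cGy Si), with bars for mean and SD, and one class set against the other. Tumours with a high score in one class have a high score in the other (r = 0.85, n = 45), and every dose group overlaps sham.

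The classes moved together between tumours. The score of one correlated with that of the other at r = 0.85 (rho = 0.84, n = 45), at 0.83 with the group means removed and at 0.79 without the 2 farthest tumours. The points share the array, so anything that shifts all short probe sets of an array enters both. Between single genes the median r was 0.317 within box C/D (325 pairs), 0.298 within box H/ACA (276 pairs) and 0.299 between the classes (624 pairs), against 0.0141 over all pairs of genes. The 2 tumours with the lowest box C/D scores were 80 cGy replicate 1 and 30 cGy replicate 4, both at -0.78, and the highest was sham replicate 14 at 0.82. Sham replicate 12 had the third lowest box C/D score, -0.56, so low scores were not limited to Si hosts. The SD over the tumours had a median of 0.503 for box C/D genes (0.238 to 0.944) and 0.454 for box H/ACA genes (0.179 to 0.818), against 0.434 over all genes. The most variable were Snord118, Snord33 and Snord53 in box C/D and Snora44, Snora16a and Snora74a in box H/ACA. The least variable were Snord96a, Snord95 and Snord55 in box C/D and Snora52, Snora5c and Snora70 in box H/ACA.

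snoRNA values were compared with those of their host genes across tumours, and most pairs varied together. In 29 pairs both snoRNA and host were kept, 14 of box C/D and 15 of box H/ACA, with 25 hosts. Pearson's r across the 45 tumours was positive in all 29. After Benjamini-Hochberg adjustment over the 29 pairs, permutation tests called 6 of 14 box C/D pairs and 13 of 15 box H/ACA pairs, and 6 and 12 by Spearman's rho. The lowest r called was 0.343, and with host genes that were not their own, box C/D genes reached it in 51 of 336 pairs (15.2%) and box H/ACA genes in 34 of 360 (9.44%). The median r was 0.278 in box C/D (0.0169 to 0.723) and 0.575 in box H/ACA (0.177 to 0.773). These values are r as measured. Another r had the group means and the main axis of variation of probe sets lacking a symbol removed. It was higher in most box C/D pairs, such as Snord33 (0.217 to 0.461) and Snord73b (0.170 to 0.458). It was lower for Snord57 (0.0169 to -0.225), Snord14e and Snord8. Box H/ACA pairs moved both ways, as for Snora20 (0.177 to 0.540) and Snora69 (0.343 to 0.040). The class contrast in r thus depends on what is removed. Whether the classes differed in r was not tested. The snoRNA genes lie within the spans of their hosts and the labelled cDNA came from total RNA, so mature snoRNA and unspliced host RNA cannot be told apart. Positions of the probe sets were not used. Snora3, Snora5c and Snora21 each had 2 probe sets with closely related values (r = 0.995, 1 and 0.978), and which locus each measures was not checked.

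The pairs with the highest r in box H/ACA were Snora62 with Rpsa (r = 0.773, rho = 0.546), Snora33 with Rps12 (r = 0.747, rho = 0.665) and Snora75 with Ncl (r = 0.695, rho = 0.710). Rpsa and Rps12 encode small-subunit ribosomal proteins. Each pair had a permutation p of 1e-05, the smallest that 100000 permutations can give. Without the 2 tumours farthest in the host gene, r was 0.598, 0.680 and 0.632 in these pairs. In box C/D the highest were Snord8 with Chd8, the gene of a chromatin remodeller (r = 0.723, rho = 0.664), and Snord14e with Hspa8, the gene of a constitutive chaperone (r = 0.563, rho = 0.591). Snord14e belongs to the U14 family, which in yeast is needed for the small-subunit ribosomal RNA. Ncl holds a member of each class: Snora75 followed it at 0.695 and Snord82 at 0.362 (permutation test, adjusted p = 0.0245). Snord57 and its host Nop56 had the lowest r of all pairs, 0.0169, and Nop56 ranked 16 among the 25 host genes for this snoRNA. Set against the other 24 hosts, the own host had the highest r in 11 of 15 box H/ACA pairs and in 2 of 14 box C/D pairs, and the median r with other hosts was 0.121 and 0.102. These ranks were counted on r as measured only.

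For Si hosts minus sham, the median difference of the genes that hold snoRNAs was 0.04 for the 14 host genes of box H/ACA and -0.01 for the 12 host genes of box C/D, and 1 of the 14 and 0 of the 12 had an unadjusted p under 0.05. This covers 25 of the 43 hosts. The hosts of Snord87, Snord49a, Snord49b and Snora16a were not among the kept genes, so whether they differed was not seen. Snord82 was lower by 0.60 in Si hosts while Ncl differed by -0.00 ± 0.07. Snord35a gave -0.53 and Rpl13a 0.11 ± 0.08, Snord53 gave -0.63 and Wdr43 0.01 ± 0.10, and Snord57 gave -0.44 and Nop56 0.02 ± 0.10. Snord47 gave -0.36 and its host Gas5, a non-coding gene of growth-arrested cells, 0.08 ± 0.11. Other hosts were lower along with their snoRNAs. Kansl2, the host with an unadjusted p under 0.05, gave -0.20 ± 0.08 (limma p = 0.0152 unadjusted, not called). Its members Snora34 and Snora2b gave -0.50 and -0.24. Rps12 gave -0.24 ± 0.15 beside -0.22 for Snora33, and Chd8 -0.18 ± 0.10 beside -0.22 for Snord8. Of the 25 hosts, 12 were lower in Si hosts. Differences between a snoRNA and its host in the response to Si were not tested against each other.

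**Figure D5:**
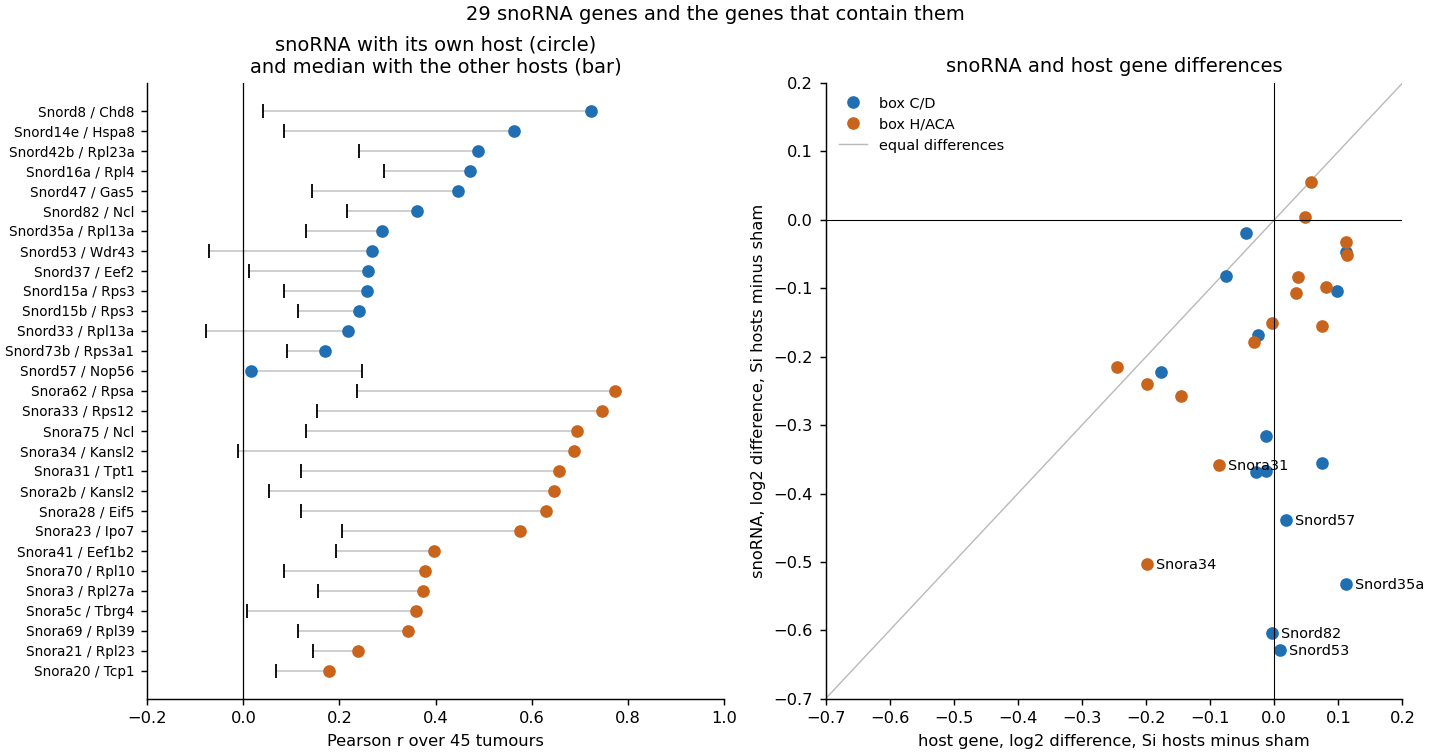
Left, Pearson's r over the 45 tumours of each snoRNA gene with its own host (circle, coloured by class) and the median r with the other hosts (bar). Right, the log2 difference, Si hosts minus sham, of the snoRNA against that of its host. All 29 correlations are positive, and the host genes' differences lie on both sides of 0 while most snoRNA differences are below it. Hosts that were not kept, such as those of Snord87, Snord49b and Snora16a, are not shown.

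Proteins that make and carry snoRNAs were examined next, as Si hosts minus sham. Of the box C/D core proteins, fibrillarin (Fbl) gave 0.02 ± 0.10, Nop56 0.02 ± 0.10 and Nop58 0.01, and Snu13, which binds the snoRNA first, gave -0.15 ± 0.06 (p = 0.0251, limma adjusted p = 0.819). Of the box H/ACA core proteins, dyskerin (Dkc1) gave 0.14 ± 0.15, Gar1 0.23 ± 0.14, Nop10 0.12 and Nhp2 -0.16, and none had an unadjusted p under 0.05. Of 13 assembly factors, 10 were measured and 6 were lower, with a median of -0.02, and 1 had an unadjusted p under 0.05, Rpap3 (-0.26 ± 0.09, p = 0.00672). Of 12 genes listed by symbol as non-coding snoRNA hosts, 8 were kept and 6 were lower, with a median of -0.03 and 0 at an unadjusted p under 0.05. Among these 8, only Gas5 holds a kept snoRNA gene. Of 24 genes of RNA polymerase I and ribosome assembly, 23 were kept and 14 were lower, with a median of -0.01, and the 1 with an unadjusted p under 0.05 was Npm1, higher by 0.24 ± 0.10. None of these genes was called. Across tumours the box C/D score correlated with the score of the box C/D core proteins at r = 0.38, the box H/ACA score with that of the box H/ACA core proteins at 0.30, and the scores of both classes with that of the non-coding hosts at 0.51 and 0.46 (n = 45).

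Other short RNAs were set beside the snoRNAs. The kept miRNA genes had a median level of 5.88, near the filter limit of 5.67, against 7.94 in box C/D and 7.06 in box H/ACA. These levels only place the probe sets against the limit and do not compare amounts of RNA. The miRNA genes are therefore a limited comparison, and whether small probe sets shifted in common was not tested. Of 306 miRNA genes, 64 were kept and 27 were lower in Si hosts, with a median difference of 0.02, and 2 were lower and 3 higher at an unadjusted p under 0.05. Their score correlated with the box C/D score at r = 0.11 and with the box H/ACA score at 0.09. The 3 scaRNA genes, which guide the same changes on spliceosomal RNAs, had a median difference of 0.00, and their score correlated with the box H/ACA score at 0.61 and with the box C/D score at 0.45. Of 8 genes with symbols beginning Rnu, Rny or Rn7s, 6 were kept and 5 were lower, with a median of -0.17. Those with an unadjusted p under 0.05 were Rnu3a (-0.52 ± 0.18, p = 0.00489) and Rny3 (-0.37 ± 0.12, p = 0.00333). Rnu3a encodes U3, a box C/D snoRNA outside the symbol rule, and Rny3 encodes a Y RNA, which is not a snoRNA. Neither was called.

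Cell type markers were set beside these results. All 6 epithelial markers (Krt8, Krt18, Krt5, Krt14, Epcam, Cdh1) were kept, as were 3 of 4 leukocyte markers (Ptprc, Cd3e and Cd68, not Cd79a), 3 of 3 skeletal muscle and 3 of 3 adipocyte markers, and none was called between Si hosts and sham. The leukocyte score ran from -0.81 to 0.98 in Si hosts and from -1.36 to 0.91 in sham, and had r = -0.36 with the box C/D score and -0.25 with the box H/ACA score. The epithelial score ran from -4.44 to 1.80 in Si hosts and from -3.97 to 1.94 in sham, and its r was 0.06 and -0.01. The skeletal muscle score ran from -1.86 to 6.34 in Si hosts and from -1.83 to 6.01 in sham, with r = 0.17 and 0.21. By dose its mean was -1.35 ± 0.53 at 10 cGy (SD), -0.16 ± 2.46 at 30 cGy and 1.15 ± 2.39 at 80 cGy, against 0.25 ± 2.51 in sham. The adipocyte score had r = 0.08 and 0.15. The 2 measured cell cycle markers, Mki67 and Top2a, gave 0.17 ± 0.13 and 0.18 ± 0.14. The array median averaged 5.67 in Si hosts and 5.68 in sham and correlated with the scores at 0.22 and 0.23. The first component of the 12457 probe sets without a gene symbol (11.1% of their variance) correlated with them at -0.22 and -0.24. The part of these measures in the snoRNA differences was not tested, except that with the component as a covariate the class medians for Si hosts were -0.29 in box C/D and -0.18 in box H/ACA, and that of box H/ACA at 10 cGy was -0.14 instead of -0.04. In bulk tumours, fewer cells of a type and less RNA per cell cannot be told apart.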

How the data were processed

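RNA of each tumour was labelled as cDNA (250 ng of total RNA, 5.5 ug of cDNA) and hybridised to 1 single-colour Affymetrix array, per the labels' protocols. The authors deposited 1 log2 value per probe set and tumour, made by RMA with oligo per the submitters' processing notes. Tool versions and array batches were not stated there. Of 35556 probe sets, 21218 had 1 gene symbol, 1881 several and 12457 none. The 13 probe sets with several symbols that include a snoRNA were not used.

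Groups were read from the titles. Group means were fitted with limma 3.58.1 (R 4.3.3, lmFit and eBayes) over 12123 genes, two-sided, with p adjusted over all of them by Benjamini-Hochberg. The script was tested on simulated data. The number of arrays limits the precision. Levels of different probe sets are not comparable, and whether related members of one host (Snord15a and Snord15b, Snora73a and Snora73b) share signal was not tested. Genes named were, per class, those with the smallest p per contrast, the highest mean, the largest and smallest SD, and those next to the filter limit. Members and lists were chosen with earlier results of these data known. Hosts were to lie on the snoRNA's strand, but the RefSeq table gave none for snoRNAs, so the span was used. A list of histone genes matched 0 symbols. Host correlations used 100000 permutations (Python 3.11.15, scipy 1.17.1). snoRNA sequences were not used here. Alternatives were no filter on low values, a filter on values above the table median in all 45 tumours, trend and robust eBayes, array weights, a replicate block, a description-stem block, the no-symbol component as covariate, aligned array medians and each tumour left out.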

Additional observations from a re-analysis of the deposited data

Results flagged for a closer look

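In 93 sets of values (a named snoRNA gene or 1 of 3 class scores, within a dose group of 8 to 10 tumours), 12 had 1 tumour far from the rest by Dixon's criterion. Chance gives about 1 in 20 for a single set, but some of these genes were named for their spread and all sets share the same tumours, so that rate is no baseline for the count. Of these, 6 concerned 80 cGy replicate 1. It had the lowest value of Snord33 (5.65, the nearest other tumour at 7.88), Snora44 (6.66, nearest 8.65), Snora74a (5.57, nearest 6.80), Snora52 (11.77, nearest 12.25) and Snord55 (6.40, nearest 6.87), and the lowest box H/ACA score (-0.66, nearest -0.15). In 10 cGy replicate 7 the values of Snora44 (10.28, nearest 9.27), Snora5c (6.52, nearest 5.93) and Snord55 (7.65, nearest 7.15) stood above the rest. The others were Snord104 in 10 cGy replicate 5 (11.12, nearest 10.67), Snora33 in 80 cGy replicate 7 (5.65, nearest 6.43) and the box C/D minus box H/ACA score in 10 cGy replicate 3 (0.30, nearest 0.07). Differences at 80 cGy were also computed without replicate 1.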

How the results depend on the processing

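The count of snoRNA genes called, 0 in each of the 7 limma tests, changed under 3 alternatives. With array weights, Snord82 was called at 80 cGy (-0.87, adjusted p = 0.0235) and in the slope on dose (adjusted p = 0.0205), 1 snoRNA each among 30 and 25 genes. With the replicate number as a block, 1 snoRNA was called in Si hosts minus sham, Snora16a (-1.02, adjusted p = 0.0366), among 6 genes, and the box C/D genes at an unadjusted p under 0.05 numbered 8 instead of 14 and the box H/ACA genes 2 instead of 4 (1, 1 and 2 instead of 3, 5 and 2 at 10, 30 and 80 cGy). Same-numbered tumours did not deviate together (median r = -0.071 over 52 pairs, 10 of them over 0.1), so the numbers do not pair tumours. Leaving out 1 tumour at a time gave 0 to 1 call for Si hosts minus sham, the 1 being Snord49b without sham replicate 12 (-0.55, adjusted p = 0.0357), and 0 to 0 for the other 6 tests. Over the same runs the box C/D median was -0.31 to -0.22 for Si hosts, -0.23 to -0.12 at 10 cGy, -0.46 to -0.33 at 30 cGy and -0.31 to -0.21 at 80 cGy, and the box H/ACA median -0.19 to -0.10, -0.12 to 0.01, -0.27 to -0.18 and -0.20 to -0.10. With the replicate block the box H/ACA median was 0.03 at 10 cGy and -0.07 at 80 cGy, and the box C/D median -0.09 at 10 cGy. In that setting 20 box C/D and 17 box H/ACA genes were lower for Si hosts, instead of 25 and 22. Its box C/D counts at an unadjusted p under 0.05 were 2, 12 and 6 at 10, 30 and 80 cGy, instead of 1, 13 and 9. With the no-symbol component as covariate the box H/ACA median at 10 cGy was -0.14. With the filter at all 45 tumours, the box H/ACA genes at an unadjusted p under 0.05 numbered 1 of 13 for Si hosts, and 1, 2 and 1 at 10, 30 and 80 cGy. The share over all genes with that filter was not counted. The box C/D count at 10 cGy was 0 with the description-stem block, and the box H/ACA count at 80 cGy 1 with array weights. Settings added after seeing the data left out the tumours with the most extreme scores: without sham replicate 14 the members lower at an unadjusted p under 0.05 numbered 0 in box C/D at 10 cGy and 3 in box H/ACA at 30 cGy (2 at 80 cGy, as with all tumours), and without 80 cGy replicate 1 they numbered 1 in box H/ACA at 80 cGy (5 at 30 cGy, as with all tumours). For Si hosts the box C/D count was 11 without either. At 80 cGy the box C/D count was 7 without 80 cGy replicate 1, instead of 9. Host pairs called, both classes together, numbered 18 to 25 over the alternatives. The cause of these shifts was not tested. The number of tumours per dose, 8 to 10, limits what the dose comparisons can show.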
